A study of Mus musculus with 6 samples.

Results

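The 10 genes described here encode proteins that bring poly(A)-shortening enzymes to mRNA or act beside them: the BTG and TOB adaptors (Btg1, Btg2, Btg3, Tob1 and Tob2), the PAN2-PAN3 deadenylase (Pan2 and Pan3), the nuclease PARN (Parn) and the cytoplasmic poly(A)-binding proteins (Pabpc1 and Pabpc4). They were taken by symbol from a deposited table of 55487 genes, and all 10 were found and passed the filter on low counts, which left 15748 genes. The D6AdP cells are an embryonic stem (ES) cell line of the mouse. All of the cells carried DDX6-AID-mCherry on both Ddx6 alleles, DCP1a-EGFP on 1 Dcp1a allele and the OsTIR1-FLAG transgene, which supplies the plant F-box protein that marks degron-tagged proteins for destruction when an auxin is present. They grew with PD0325901, CHIR99021 and leukemia inhibiting factor, on fibroblast feeder cells treated with mitomycin C. The groups were cells before the auxin analog 5-Ph-IAA (0 h), cells at 3 h with 500 nM and cells at 6 h with 500 nM, with 2 polyA RNA libraries each. The sources used here give neither the promoter that drives OsTIR1 nor whether the line is 1 clone.

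Loss of the poly(A) tail is usually the first step of mRNA decay in the cytoplasm. PAN2-PAN3 is thought to trim long tails and the CCR4-NOT complex to remove the rest, and DDX6, which binds the CNOT1 scaffold of CCR4-NOT, links it to translational repression and decapping. BTG and TOB proteins bind the CNOT7 and CNOT8 nucleases through a conserved domain and also contact poly(A)-binding protein, which recruits the nucleases to the tail, and most members of the family are known as inhibitors of cell proliferation.

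The libraries held 16357142 to 21846959 counts. The 6 h libraries were the shallowest, and 3 counts stood for 0.139 to 0.181 CPM, a limit that covers counting error only. Replicates correlated at r = 0.994 to 0.996 for log2 CPM across genes. Chi-square per degree of freedom was 1.97 to 6.46 between replicates, so every pair differed beyond sampling noise. All 20 ES cell markers and all 21 fibroblast markers were detected in every library, so the RNA came from both cell kinds and no defining marker of either was at 0. In such bulk RNA, fewer cells of a type and less RNA per cell cannot be told apart. The mRNA of Ddx6 was not called at either time (log2 fold change 0.06 at 3 h and -0.03 at 6 h), and because the degron acts on the protein, it does not check the depletion. The libraries used here include no cells kept for 3 or 6 h without the analog, so the analog, time in culture and DDX6 loss cannot be told apart, and both comparisons with 0 h use the same 0 h libraries.

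At 6 h, the adaptor genes Btg1 and Tob2 and the nuclease gene Pan2 were lower than at 0 h and the adaptor gene Tob1 was higher. Btg1 fell by 23.02%, Tob2 fell by 20.4% and Pan2 fell by 14.5%, and Tob1 rose by 17.0%. Thus 4 of the 10 genes were called, 3 lower and 1 higher, where 22.3% of all tested genes were called, 12.3% lower and 10% higher (edgeR quasi-likelihood, Benjamini-Hochberg adjusted p under 0.05 over all tested genes). No member was called at 3 h by edgeR, DESeq2 or limma voom, where 0.140% of all genes were called by edgeR. With edgeR 1 of the 10, Tob1, had an unadjusted p under 0.05 at 3 h. Between 3 h and 6 h, 5 members were called and all 5 were lower at 6 h (Btg1, Tob2, Pan2, Pan3 and Pabpc4), where 21.7% of all genes were called, 11.8% lower and 9.89% higher. With unscaled library sizes 3 members were called lower in that comparison (Btg1, Tob2 and Pan2) and 1 higher (Btg2). The median log2 fold change of the 10 genes was 0.04 at 3 h against 0 h, -0.07 at 6 h against 0 h and -0.12 at 6 h against 3 h, and the medians over all genes lay between -0.00084 and 0.0052.

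The size of this background depended on the libraries. For 3 h against 0 h, 22 genes were called, 1679 had an unadjusted p under 0.05, and the count was 12 without 0 h replicate 1, 249 without 0 h replicate 2, 4 without 3 h replicate 1, 7 without 3 h replicate 2, 89 without 6 h replicate 1 and 88 without 6 h replicate 2. A total of 3515 genes were called at 6 h against 0 h, 1575 higher and 1940 lower. With unscaled library sizes the split was 2128 higher and 1457 lower. Between 3 h and 6 h 3414 genes were called, 1558 higher and 1856 lower, and the unscaled split was 2056 and 1296. The 3414 became 1712 without 3 h replicate 1, 1514 without 3 h replicate 2 and 2157 without 6 h replicate 1. The median absolute log2 fold change of the called genes was 0.29 at 6 h against 0 h, so the changes of Btg1 and Tob2 were somewhat larger than that of a typical called gene and those of Tob1 and Pan2 smaller.

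**Figure D1:**
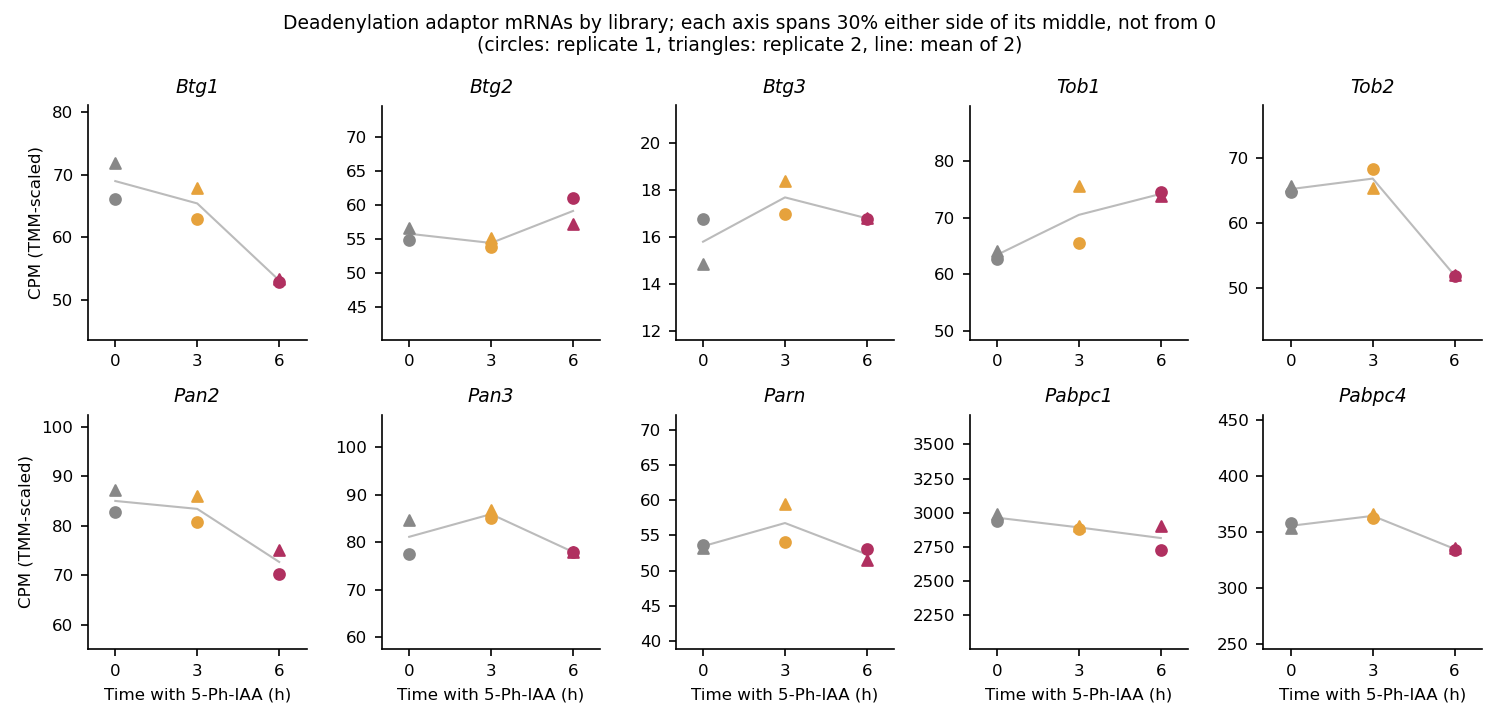
CPM of the 10 genes in each library against hours with 5-Ph-IAA, with circles for replicate 1, triangles for replicate 2 and a line through the mean of 2 libraries at each time. Each vertical axis spans 30% either side of its middle and does not start at 0. Btg1, Tob2 and Pan2 lie lower in both 6 h libraries than in any 0 h library, and Tob1 lies higher. Genes that were not called are separated in the same way, Pabpc1, Pabpc4 and Parn lower and Btg2 and Btg3 higher. Only Pan3 overlaps between 0 h and 6 h. The share of all genes so separated was not computed.

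Levels were compared between genes as CPM per kilobase of exon, averaged over the 6 libraries. Exon length was the union of the exons of all annotated transcripts, such as 14955 nt for Pan3, 6664 nt for Tob2 and 2288 nt for Tob1. The order of the genes therefore depends on the annotation. Pabpc1, the main cytoplasmic poly(A)-binding protein gene, was far above the others at 442 (417 to 457 over the libraries), higher than 99.7% of 15738 tested genes with a length. Pabpc4 followed at 87.3 (82.9 to 91.0), then Tob1 at 30.3 (27.4 to 33.0) and Btg2 at 20.6 (19.6 to 22.3), each apart from its neighbours in range. The next 4 could not be ordered by their ranges: Btg1 stood at 11.8 (10.02 to 13.6), Parn at 10.1 (9.58 to 11.0), Pan2 at 9.49 (8.31 to 10.3) and Tob2 at 9.21 (7.78 to 10.2), each overlapping the next. Pan3 had 5.46 (5.18 to 5.80) and Btg3 4.17 (3.70 to 4.58), which placed Btg3 above 48.6% of tested genes. Btg3 rested on the fewest reads, 278 to 397 counts per library, and the other 9 genes on 860 to 64526.

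Btg1 encodes a small adaptor that binds CNOT7 and CNOT8 (ENSMUSG00000036478, chromosome 10, 96617006 to 96622809, plus strand, GRCm38). It measured 66.1 and 71.8 CPM at 0 h, 62.9 and 67.9 CPM at 3 h, and 52.9 and 53.4 CPM at 6 h. Both 6 h libraries lay below every 0 h and 3 h library, and the 0 h and 3 h libraries overlapped. Btg1 fell at 6 h against 0 h (log2 fold change -0.38 ± 0.05 SE, 95% interval -0.49 to -0.26, edgeR adjusted p = 9.9e-05) and at 6 h against 3 h (-0.30 ± 0.05, adjusted p = 0.00090). At 3 h against 0 h the value was -0.08 ± 0.05 (adjusted p = 0.643).

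Btg2, an adaptor gene known both as an immediate early gene and as a p53 target, did not fall with Btg1 (ENSMUSG00000020423, chromosome 1, 134075170 to 134079120, minus strand). It measured 54.9 and 56.7 CPM at 0 h, 53.8 and 55.1 CPM at 3 h, and 61.1 and 57.2 CPM at 6 h. The 6 h libraries were the highest of the 6, by a small margin over 0 h, and Btg2 was not called at 6 h against 0 h (log2 fold change 0.08 ± 0.05, interval -0.02 to 0.19, adjusted p = 0.262) or against 3 h (0.12 ± 0.05, adjusted p = 0.105). Unscaled library sizes gave a call for 6 h against 3 h (0.15, adjusted p = 0.0362). The interval at 6 h against 0 h leaves no room for a fall of the size seen in Btg1. On lists of genes of the same kinds, which were chosen with earlier results of these data known, 13 of 21 immediate early genes were lower at 6 h and none higher (median log2 fold change -0.36), and 11 of 20 p53 targets were lower and 2 higher (median -0.17). Among them the nuclear receptor gene Nr4a1 fell by 0.95 on the log2 scale (adjusted p = 1.5e-09), Ier2 by 0.32 (adjusted p = 6.0e-05) and the p53-induced exonuclease gene Aen by 0.39 (adjusted p = 4.0e-06). Over all tested genes, 12.3% were lower and 10% higher at 6 h against 0 h.

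Btg3, the least abundant adaptor, was not called in any comparison (ENSMUSG00000022863, chromosome 16, 78332637 to 78377192, minus strand). It measured 16.7 and 14.8 CPM at 0 h, 17.0 and 18.4 CPM at 3 h, and 16.8 and 16.8 CPM at 6 h. The times did not overlap, with 0 h lowest and 3 h highest, but the nearest libraries of 6 h and 0 h stood at 16.76 and 16.74 CPM. Its log2 fold change was 0.09 ± 0.09 at 6 h against 0 h (interval -0.09 to 0.27, adjusted p = 0.491) and 0.17 ± 0.08 at 3 h (adjusted p = 0.493). These values were 0.0044 and 0.07 without 0 h replicate 2, and 0.18 and 0.26 without 0 h replicate 1. The value at 3 h was 0.11 without 3 h replicate 2. Exons of Cxadr on the opposite strand overlap 17.3% of its exon length, and since the sources used here do not give the strand setting of the counting, reads of the 2 genes may not have been told apart. Cxadr had 592 to 820 counts per library.

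Tob1 encodes an adaptor that binds both CCR4-NOT and PABPC (ENSMUSG00000037573, chromosome 11, 94211454 to 94215495, plus strand). It measured 62.7 and 64.1 CPM at 0 h, 65.4 and 75.5 CPM at 3 h, and 74.5 and 73.9 CPM at 6 h. Both 6 h libraries lay above both 0 h libraries, while the 3 h libraries stood apart from each other, 1 near 0 h and 1 above 6 h. Tob1 was the only member called higher at 6 h against 0 h (log2 fold change 0.23 ± 0.06, interval 0.10 to 0.35, adjusted p = 0.0091). It was not called at 3 h against 0 h (0.15 ± 0.06, adjusted p = 0.336) or at 6 h against 3 h (0.07 ± 0.06, adjusted p = 0.392). Without 3 h replicate 1 these values were 0.25 and -0.02, and without 3 h replicate 2 they were 0.05 and 0.19.

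Its paralog Tob2 changed in the opposite direction (ENSMUSG00000048546, chromosome 15, 81848272 to 81858796, minus strand). It measured 64.7 and 65.7 CPM at 0 h, 68.3 and 65.4 CPM at 3 h, and 51.9 and 52.0 CPM at 6 h. The 0 h and 3 h libraries overlapped, and both 6 h libraries lay below all of them. Tob2 fell at 6 h against 0 h (log2 fold change -0.33 ± 0.05, interval -0.43 to -0.23, adjusted p = 0.00011) and at 6 h against 3 h (-0.36 ± 0.05, interval -0.46 to -0.26, adjusted p = 5.1e-05). At 3 h the value was 0.04 ± 0.05 (adjusted p = 0.834). An antisense gene, Gm49476, overlaps 4.34% of the exons of Tob2 and had 0 to 4 counts per library.

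The balance between paralogs, or between the 2 subunits of PAN2-PAN3, can be read within a library, where it does not depend on scaling. Per exon length, Tob1 over Tob2 was 2.82 and 2.84 in the 0 h libraries, 2.79 and 3.36 in the 3 h libraries, and 4.19 and 4.14 in the 6 h libraries. Btg1 over Btg2 was 0.626 and 0.658 in the 0 h libraries, 0.608 and 0.641 in the 3 h libraries, and 0.450 and 0.485 in the 6 h libraries. Both ratios at 6 h lay outside the range of the other 4 libraries, upward for Tob1 over Tob2 and downward for Btg1 over Btg2. Pan2 over Pan3 was 1.89 and 1.82 in the 0 h libraries, 1.68 and 1.75 in the 3 h libraries, and 1.59 and 1.70 in the 6 h libraries, with overlap between 3 h and 6 h. Pabpc1 over Pabpc4 was 5.05 and 5.21 in the 0 h libraries, 4.89 and 4.88 in the 3 h libraries, and 5.03 and 5.32 in the 6 h libraries, and the 6 h values enclosed those of 0 h. In counts without length, Tob1 over Tob2 was 0.968 and 0.975 in the 0 h libraries, and Pan2 over Pan3 was 1.07 and 1.03. The level of a ratio thus depends on the exon lengths, but its change between libraries does not. The ratios were not tested.

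**Figure D2:**
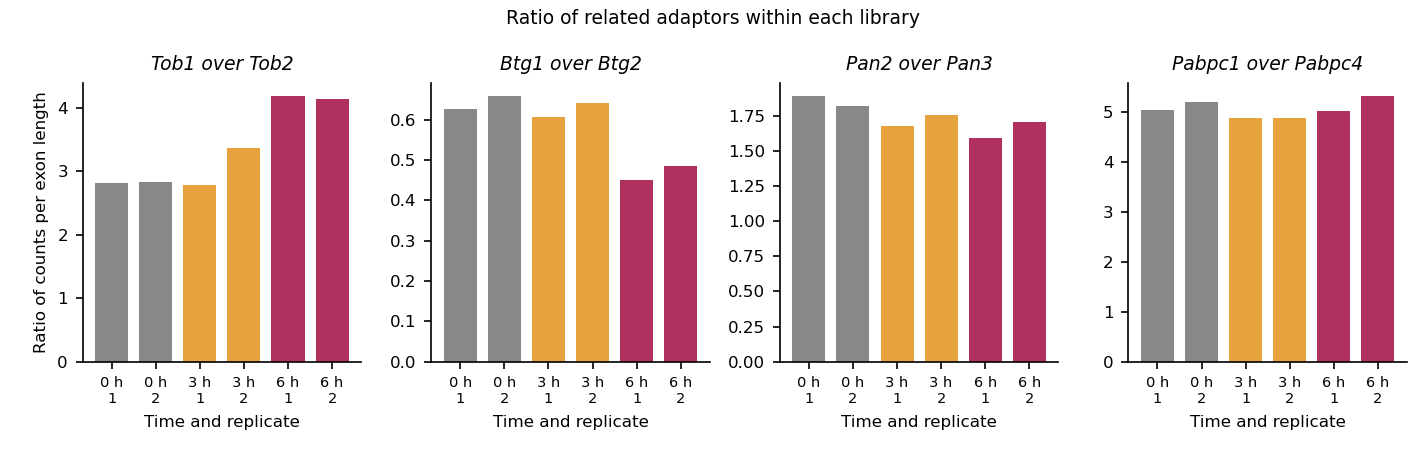
Ratio of counts per exon length between 4 pairs of related genes, 1 bar per library, by time with 5-Ph-IAA and replicate. Tob1 over Tob2 stands at 4.19 and 4.14 in the 6 h libraries and at 2.79 to 3.36 in the 4 others, and Btg1 over Btg2 is lowest in the 6 h libraries.

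Pan2 encodes the catalytic subunit of PAN2-PAN3 (ENSMUSG00000005682, chromosome 10, 128303335 to 128321358, plus strand). It measured 82.9 and 87.2 CPM at 0 h, 80.7 and 86.1 CPM at 3 h, and 70.4 and 75.1 CPM at 6 h. Both 6 h libraries lay below the 4 others, which overlapped among themselves. Pan2 fell at 6 h against 0 h (log2 fold change -0.23 ± 0.05, interval -0.33 to -0.12, adjusted p = 0.0036). It was also lower at 6 h than at 3 h (-0.20 ± 0.05, adjusted p = 0.0098), a call that was lost without 3 h replicate 2 (adjusted p = 0.156) and without 6 h replicate 1 (adjusted p = 0.110). At 3 h the value was -0.03 ± 0.05 (adjusted p = 0.886), and it was positive without 0 h replicate 2 or 3 h replicate 1.

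Pan3, whose product anchors PAN2 to PABPC on the tail, was highest at 3 h (ENSMUSG00000029647, chromosome 5, 147430161 to 147548502, plus strand). It measured 77.5 and 84.7 CPM at 0 h, 85.0 and 86.8 CPM at 3 h, and 78.0 and 77.9 CPM at 6 h. The 0 h libraries enclosed the 6 h libraries, and both 3 h libraries lay above both 6 h ones. Pan3 was lower at 6 h than at 3 h (log2 fold change -0.14 ± 0.05, interval -0.24 to -0.04, adjusted p = 0.0462), and the call was lost when any of the 4 libraries of 3 h and 6 h was left out (adjusted p = 0.126 to 0.244). It was not called at 6 h against 0 h (-0.06 ± 0.05, interval -0.16 to 0.04, adjusted p = 0.421), where the value was 0.0090 without 0 h replicate 2, or at 3 h against 0 h (0.08 ± 0.05, adjusted p = 0.574).

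Parn, a cap-binding poly(A) nuclease gene whose product is best known for the maturation of small non-coding RNAs, was not called in any comparison (ENSMUSG00000022685, chromosome 16, 13537960 to 13668170, minus strand). It measured 53.7 and 53.2 CPM at 0 h, 54.1 and 59.4 CPM at 3 h, and 53.1 and 51.5 CPM at 6 h. The 3 h libraries were the highest and the 6 h libraries the lowest. The log2 fold change was -0.03 ± 0.05 at 6 h against 0 h (interval -0.15 to 0.08, adjusted p = 0.721), -0.12 ± 0.05 at 6 h against 3 h (adjusted p = 0.129) and 0.09 ± 0.05 at 3 h against 0 h (adjusted p = 0.596). With unscaled library sizes the first of these was 0.0035.

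The poly(A)-binding protein genes moved little. Pabpc1 (ENSMUSG00000022283, chromosome 15, 36595661 to 36609668, minus strand) measured 2936 and 2991 CPM at 0 h, 2881 and 2905 CPM at 3 h, and 2727 and 2902 CPM at 6 h. Both 6 h libraries lay below both 0 h libraries, but they also differed from each other by more than any other pair of replicates of this gene. Pabpc1 was not called at 6 h against 0 h (log2 fold change -0.07 ± 0.03, interval -0.14 to -0.01, adjusted p = 0.0910). Without 6 h replicate 2 it was called (-0.12, adjusted p = 0.00168). Against 3 h it was -0.04 ± 0.03 (adjusted p = 0.389), a value that was -0.08 without 6 h replicate 2, when it was called (adjusted p = 0.0191), and 0.01 without 6 h replicate 1. At 3 h against 0 h it was -0.04 ± 0.03 (adjusted p = 0.729).

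Pabpc4, which encodes an inducible relative of PABPC1, gave tight replicates (ENSMUSG00000011257, chromosome 4, 123262351 to 123298925, plus strand). It measured 357.8 and 353.3 CPM at 0 h, 362.5 and 366.3 CPM at 3 h, and 333.6 and 335.9 CPM at 6 h. No times overlapped, with 3 h highest and 6 h lowest. Pabpc4 was lower at 6 h than at 3 h (log2 fold change -0.12 ± 0.03, interval -0.19 to -0.05, adjusted p = 0.0120). That call was lost without 3 h replicate 1 (adjusted p = 0.0855), 3 h replicate 2 (0.132) or 6 h replicate 1 (0.0519). It was not called at 6 h against 0 h (-0.09 ± 0.03, interval -0.15 to -0.02, adjusted p = 0.0620) or at 3 h against 0 h (0.04 ± 0.03, adjusted p = 0.737).

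**Figure D3:**
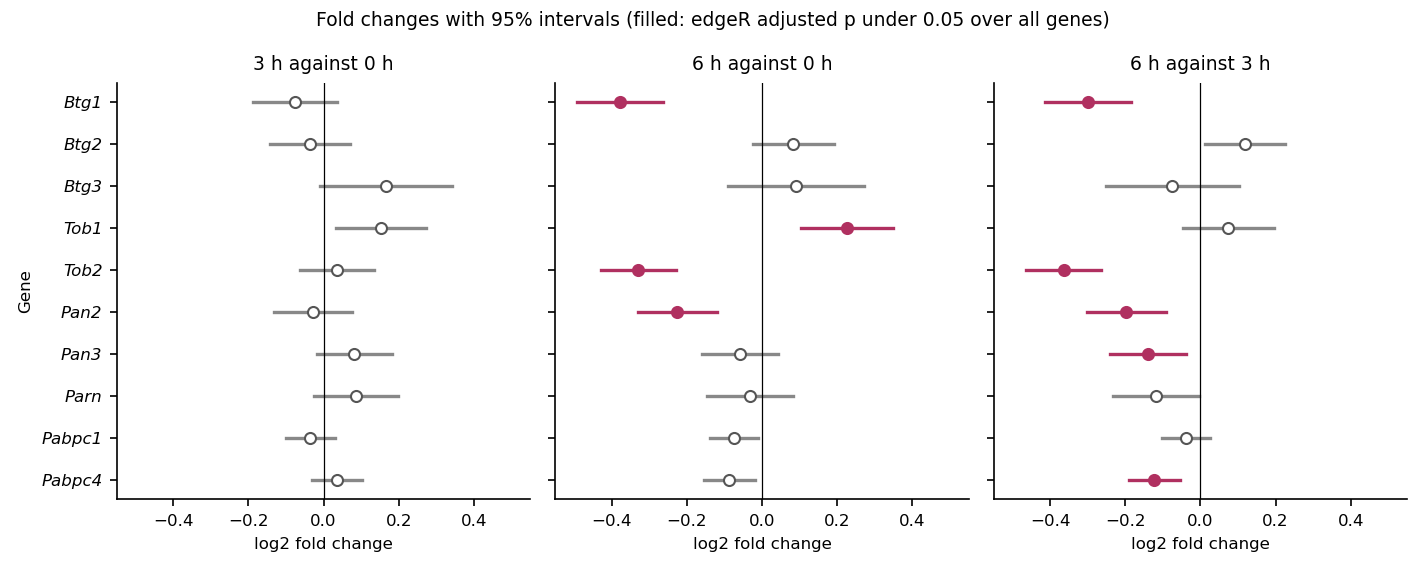
Log2 fold change of each gene with its 95% interval in the 3 comparisons, from 1 edgeR fit over 15748 genes, filled where the adjusted p was under 0.05. No gene is filled at 3 h against 0 h, 4 are filled at 6 h against 0 h with Tob1 alone to the right, and 5 are filled at 6 h against 3 h, all to the left.

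The fibroblast markers also differed between times. Their summed CPM was 21360 and 19516 in the 0 h libraries, 18961 and 18643 in the 3 h libraries, and 21174 and 19088 in the 6 h libraries. None of the 21 was called at 3 h or at 6 h against 0 h (median log2 fold change -0.14 and -0.03), and 7 were higher at 6 h than at 3 h (median 0.11). The ES cell markers summed to 7841 and 8090 CPM in the 0 h libraries, 8147 and 8086 in the 3 h libraries, and 7246 and 7471 in the 6 h libraries, with 9 of 20 lower and 4 higher at 6 h against 0 h. At 6 h against 3 h, 10 of the 20 were lower and none higher (median -0.13), and the part of this shift in the members' changes was not tested. Over all tested genes, 12.3% were lower and 10% higher at 6 h against 0 h, and 11.8% and 9.89% at 6 h against 3 h. With the mean fibroblast marker level as a covariate, the 4 calls at 6 h against 0 h had adjusted p of at most 0.000225, and Pabpc1 (-0.09, adjusted p = 2.6e-05) and Pabpc4 (-0.09, adjusted p = 0.0126) were called too. For 6 h against 3 h, the same covariate left 3 members called. The values of Pan2 and Pan3 in that comparison became -0.11 (adjusted p = 0.271) and -0.08 (adjusted p = 0.433). At 3 h it gave a call for Pabpc1 (-0.12, adjusted p = 0.0237).

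**Figure D4:**
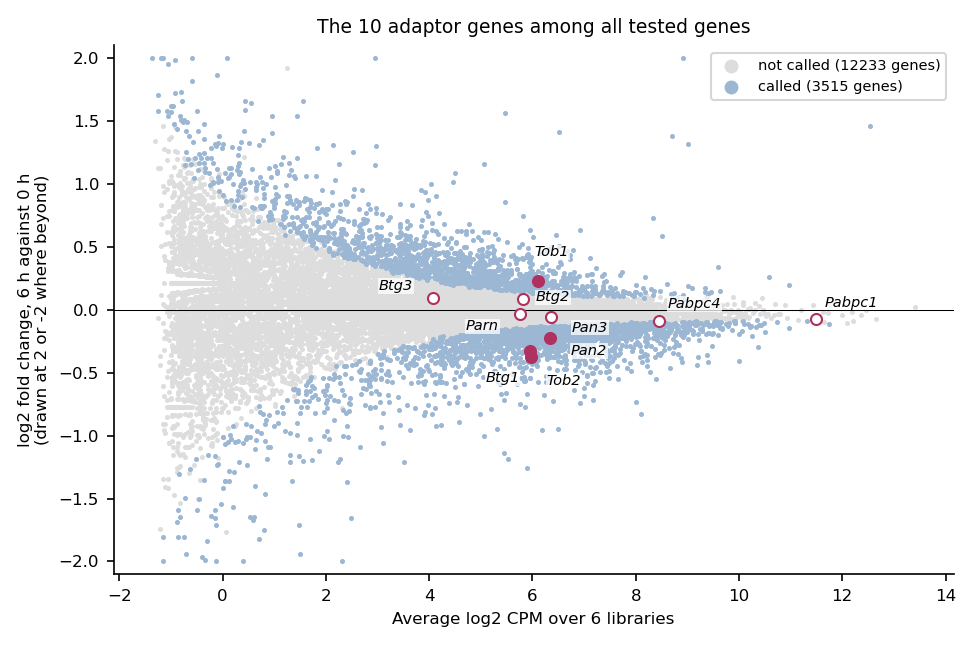
Log2 fold change at 6 h against 0 h versus average log2 CPM over 6 libraries for all 15748 tested genes, with the 3515 called genes in blue, the others in grey and the 10 adaptor genes in red (filled where called). Btg1 (-0.38), Tob2 (-0.33) and Pan2 (-0.23) lie below 0 and Tob1 (0.23) above it, all at similar abundance, and Pabpc1 lies near 0 at the far right.

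The promoters of the 4 genes called at 6 h against 0 h are shown because these genes moved in both directions. The letters are 250 bases before to 50 bases after the start given by RefSeq (GRCm38.p6), 5′ to 3′ on the strand of the gene. Capitals mark, on either strand, the TATA box letters TATAAA, the CCAAT box, the GC box letters GGGCGG, and TGACG, the core of a cAMP response element (CRE).
Btg1, chr10:96616751-96617050, plus strand: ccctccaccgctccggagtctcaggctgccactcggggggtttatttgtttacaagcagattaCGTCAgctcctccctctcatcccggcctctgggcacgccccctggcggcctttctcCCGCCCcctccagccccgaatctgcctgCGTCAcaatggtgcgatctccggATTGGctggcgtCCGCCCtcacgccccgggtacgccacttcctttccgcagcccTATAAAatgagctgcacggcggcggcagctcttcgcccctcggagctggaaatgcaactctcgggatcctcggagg
Tob2, chr15:81858277-81858576, minus strand: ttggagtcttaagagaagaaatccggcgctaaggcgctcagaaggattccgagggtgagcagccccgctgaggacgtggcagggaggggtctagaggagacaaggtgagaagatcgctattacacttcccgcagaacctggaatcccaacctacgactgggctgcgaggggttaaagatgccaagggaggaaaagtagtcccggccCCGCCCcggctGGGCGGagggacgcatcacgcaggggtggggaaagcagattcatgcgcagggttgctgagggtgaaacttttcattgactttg
Pan2, chr10:128303085-128303384, plus strand: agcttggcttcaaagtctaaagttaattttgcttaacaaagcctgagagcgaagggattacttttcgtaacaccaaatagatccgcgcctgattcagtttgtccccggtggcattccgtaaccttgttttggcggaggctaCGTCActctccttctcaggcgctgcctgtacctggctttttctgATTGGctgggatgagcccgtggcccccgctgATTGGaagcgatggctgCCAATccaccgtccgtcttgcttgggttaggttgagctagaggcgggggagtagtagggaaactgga
Tob1, chr11:94211204-94211503, plus strand: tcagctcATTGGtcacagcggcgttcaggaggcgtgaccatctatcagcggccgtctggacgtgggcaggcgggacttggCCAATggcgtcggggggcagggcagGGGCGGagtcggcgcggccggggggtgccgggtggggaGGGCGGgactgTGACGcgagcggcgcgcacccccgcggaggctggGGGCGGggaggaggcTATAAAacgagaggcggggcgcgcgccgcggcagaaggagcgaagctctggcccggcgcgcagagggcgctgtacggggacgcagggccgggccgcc
Of the 10 genes, 9 had an entry, and Pabpc1 had none. The Btg1 promoter, of a gene that fell, and the Tob1 promoter, of the gene that rose, both held a TATA box match, at -26 to -21 and at -47 to -42 from the start, together with matches to the other 3 motifs. The Tob2 promoter held 2 GC box matches and none of the other 3 motifs, and the Pan2 promoter held 3 CCAAT box matches and 1 CRE core. Among 32851 promoters of the same length, 13.6% held the TATA box letters, 37.4% the CCAAT box, 35.7% the GC box letters and 20.8% the CRE core, on either strand. Copies of 1 motif may overlap each other. The start that RefSeq gives for Tob2 lies inside the gene as GENCODE annotates it. These matches are letters in a window, and nothing was measured of factor binding.

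The 3′ UTRs of the 10 genes differed widely in the transcript with the longest coding sequence. Btg1 had the longest, 4166 nt, followed by Pan3 with 2750 nt, Tob2 with 2457 nt and Btg2 with 2199 nt, while Pabpc4 had 332 nt, and the median over 13402 tested genes was 1002 nt. Btg1 held 11 copies of AUUUA, the core of AU-rich elements, more than 95.3% of tested genes, and Btg2 held 5. Pan2, Pabpc4 and Parn held none. Per kilobase, Btg1 held 2.64 copies, below Btg3 (9.11), Pabpc1 (6.83) and Tob1 (3.91) and above Btg2 (2.27), Tob2 (1.63) and Pan3 (1.45). The longer UAUUUAU was absent from Btg1 and occurred in Btg2, Btg3, Tob2 and Pan3, and in 28.4% of tested genes. The element UGUANAUA, which Pumilio proteins bind, occurred in Btg1 alone, in 2 copies, and in 24.9% of tested genes. The heptamer AGCACUU occurred in Btg1, Tob2 and Pan3 and in 15.8% of tested genes. It pairs with the seed shared by miRNAs of the miR-290 and miR-302 clusters, and silencing by miRNAs uses DDX6. The sites are shown because all 3 of these genes were lower at 6 h than at 3 h, as were Pan2 and Pabpc4, which have no such heptamer. The 3 genes also have the longest 3′ UTRs of the 10, where more matches fall by length alone. The call of Pan3 held in 8 of 16 alternatives, and Pan3 was not called at 6 h against 0 h. A link between the heptamer and the changes was not tested. Capitals mark the heptamer, written with T, in GRCm38.
Btg1, chr10:96619134-96619163, plus strand: gacttttacctAGCACTTaaaatgtataaa
Tob2, chr15:81850125-81850154, minus strand: atagggaggttAGCACTTtttctaattgga
Pan3, chr5:147547042-147547071, plus strand: gacagactccaAGCACTTgcaactgatgtt
The RefSeq table holds 5 mature miRNAs of these clusters with the seed AAGUGCU, of which 1 from each cluster is given with the seed (bases 2 to 8) in capitals.
miR-294-3p, chr7:3220691-3220712, plus strand: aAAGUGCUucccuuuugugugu
miR-302b-3p, chr3:127545275-127545297, plus strand: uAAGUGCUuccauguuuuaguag
Mature miRNAs were not measured in these polyA libraries. A match is a description of the letters and does not show that the site is used.

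Subunit genes of CCR4-NOT, the complex that BTG and TOB proteins recruit, were called in both directions at 6 h. Of 11 CCR4-NOT subunits, 3 were lower than at 0 h and 1 was higher (median log2 fold change -0.10). Over all tested genes, 12.3% were lower and 10% higher in this comparison. Cnot8, a nuclease subunit that BTG and TOB proteins bind, measured 76.5 and 74.8 CPM at 0 h, 71.5 and 74.0 CPM at 3 h, and 53.8 and 56.8 CPM at 6 h. It fell by 0.45 on the log2 scale at 6 h against 0 h (SE 0.05, adjusted p = 4.9e-06), with both 6 h libraries below all others. Cnot7, the other nuclease subunit that these adaptors bind, was not called at 6 h against 0 h (-0.10, adjusted p = 0.108). Cnot6l, a nuclease subunit of the other class, measured 25.6 and 26.7 CPM at 0 h, 30.4 and 34.2 CPM at 3 h, and 39.0 and 37.9 CPM at 6 h, a log2 fold change of 0.56 ± 0.07 (adjusted p = 1.6e-05). The 3rd gene named by the rule, Cnot2, a subunit of the non-catalytic module, fell by 0.18 (adjusted p = 0.0045). Relative to 3 h, 5 subunits were lower at 6 h and 1 higher, and at 3 h against 0 h none of the 11 was called.

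Of 6 other genes from deadenylase families, 2 were lower and 1 higher at 6 h against 0 h (median -0.13). Over all tested genes the shares were 12.3% lower and 10% higher. With unscaled library sizes 1 of the 6 was lower and 2 were higher. Noct, the circadian deadenylase relative nocturnin, fell by 0.59 (adjusted p = 1.1e-06) and the mitochondrial Pde12 by 0.19 (adjusted p = 0.0216), and Angel1 rose by 0.55 (adjusted p = 0.0035). Of 8 further BTG and poly(A)-binding protein genes only 4 passed the filter on low counts. Among these 4 the nuclear Pabpn1 fell by 0.25 (adjusted p = 0.0063), and Pabpc4l (1.05, adjusted p = 0.0013) and Pabpc6 (1.38, adjusted p = 0.0355) were called higher from few reads. Pabpc4l had 35 and 40 counts in the 0 h libraries, 46 and 45 in the 3 h libraries, and 71 and 63 in the 6 h libraries. Pabpc6 had 3 to 21 counts per library. Whether it shares reads with Pabpc1 was not tested, and the sources used here do not give how multi-mapped reads were counted. Btg4, the adaptor of oocytes, had 0 counts in every library.

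Among 18 partners of cytoplasmic poly(A)-binding proteins, 5 were lower and 3 higher at 6 h against 0 h (median -0.04), and with unscaled library sizes 3 were lower and 4 higher. Tnrc6b, a GW182 scaffold of microRNA silencing that binds PABPC and CCR4-NOT, measured 72.7 and 64.9 CPM at 0 h, 81.4 and 80.1 CPM at 3 h, and 97.4 and 96.3 CPM at 6 h (log2 fold change 0.50 ± 0.05 at 6 h against 0 h, adjusted p = 3.6e-06). The initiation factor gene Eif4g3 rose by 0.38 (adjusted p = 9.7e-06), and Paip1, whose product binds PABPC1 and stimulates translation, fell by 0.27 (adjusted p = 0.00022). Tnrc6a was the only gene of the deadenylation lists called at 3 h against 0 h (0.27, adjusted p = 0.0049). Of 18 Ddx6 and decapping factor genes 4 were lower and 1 higher at 6 h against 0 h, or 2 and 1 unscaled, led by the decapping enzyme gene Dcp2 (-0.18, adjusted p = 0.00096).

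Of 11 poly(A) and uridylyl tail polymerases, 3 were lower and 1 was higher at 6 h against 0 h, or 1 and 1 unscaled. The uridylyl transferase gene Tut4 rose by 0.36 (adjusted p = 4.6e-05) and the cytoplasmic poly(A) polymerase gene Tent2 fell by 0.19 (adjusted p = 0.0114). Of 16 RNA-binding proteins that recruit deadenylases to chosen mRNAs, 6 were lower and none higher, or 5 and none unscaled (median -0.09). Cpeb4, which binds cytoplasmic polyadenylation elements, fell by 0.33 (adjusted p = 0.00038), the Roquin relative Rc3h2 by 0.26 (adjusted p = 0.00074) and the Smaug gene Samd4 by 0.33 (adjusted p = 0.0015). The TMM-scaled counts at 6 h against 0 h stand beside 12.3% lower and 10% higher among all tested genes. The unscaled counts stand beside 1457 genes lower and 2128 higher. Those of the CCR4-NOT subunits at 6 h against 3 h stand beside 11.8% lower and 9.89% higher. No list was tested as a set.

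**Figure D5:**
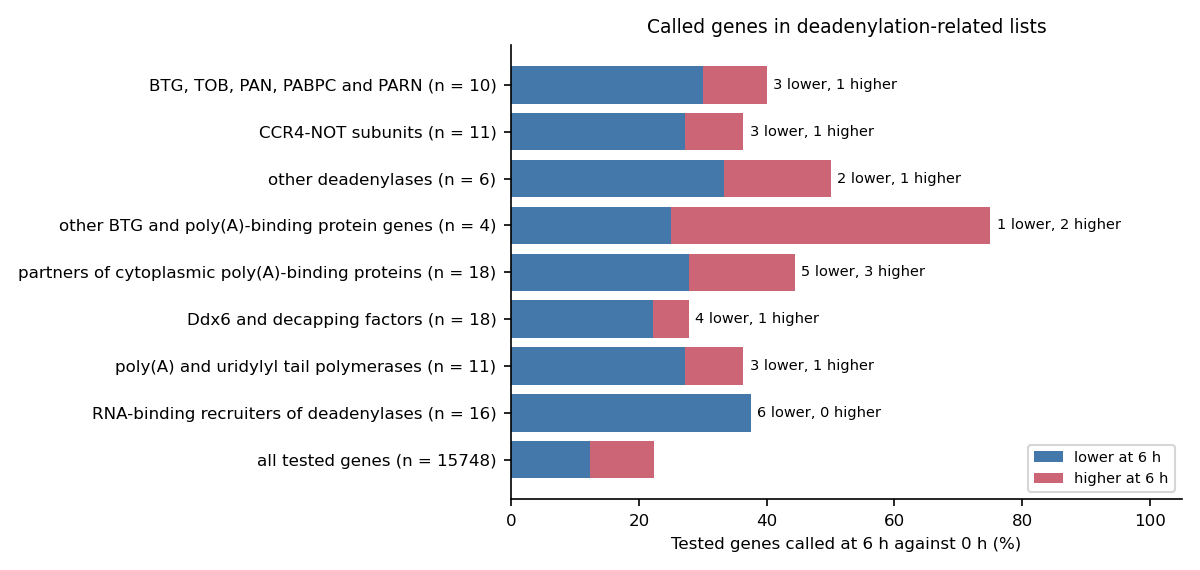
Share of tested genes called lower (blue) and higher (red) at 6 h against 0 h, in percent, for the 10 adaptor genes, 7 related lists and all 15748 tested genes, with the number tested in each list beside its name. The 10 genes have 3 lower and 1 higher, and the recruiters are the only list with no gene higher.

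The genes whose pattern over the 6 libraries was most like that of a called member were found by the root mean square difference of log2 CPM, each gene centred on its own mean, among 9584 genes. Ctns (0.018), Zfp850 (0.021) and Fabp3 (0.023) were nearest to Btg1, against a median of 0.172 over all of these genes. Slc19a2 (0.013), Tef (0.015) and Tead1 (0.018) were nearest to Tob2 (median 0.168). Apex2 (0.016), Eef1e1 (0.018) and Tmem68 (0.021) were nearest to Pan2 (median 0.120). Fam199x (0.018), Gldn (0.032) and Nedd1 (0.034) were nearest to Tob1 (median 0.138), so its nearest genes lay farther off than those of the others for the 2nd and 3rd places. With 6 libraries and so many genes, a close match is a description only.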

How the data were processed

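Whole-number read counts per Ensembl gene were deposited by the authors as 1 table of 55487 genes and 6 libraries. Per the submitters' processing notes, reads were handled with fastp 0.22.0, HISAT2 2.2.1 and featureCounts 2.0.3 on GRCm38 (mm10). Not given in the sources used here are the strand setting, the annotation release and how multi-mapped reads were counted. Names, positions and UTRs came from GENCODE M21 on the same build (55141 IDs with a symbol, the others holding 0.0231% of counts), promoters and miRNAs from RefSeq (GRCm38.p6).

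With R 4.3.3 and edgeR 4.0.16, genes were filtered by filterByExpr (minimum count 10, which kept 99.9% of the counts), libraries were TMM-scaled, and the quasi-likelihood test (glmQLFit, glmQLFTest, two-sided) was run in 1 fit of 6 libraries with 3 group means, 3 residual and 13.7 prior degrees of freedom. A gene was called at a Benjamini-Hochberg adjusted p under 0.05. SE is the absolute log2 fold change over the square root of F. Nothing in the labels names separate cultures, and p-values therefore reflect the spread between these libraries only. The test was tried on simulated counts with 50 planted genes per fold. It recovered 66% to 74% of 1.25-fold changes and 100% of 3-fold changes. At 3 h against 0 h, 14 of 188 calls were false. At 6 h, 9 of 182 calls were false against 0 h and 15 of 195 against 3 h. Alternatives used RLE factors, unscaled libraries, other filters, DESeq2 1.42.0, limma 3.58.1 voom, a replicate block, a fibroblast marker covariate, 4-library fits and fits without each library, and the legacy edgeR fit was added after seeing the data.

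The members, the 11 lists and the naming rule were chosen with earlier results of these data known. The rule names all members, up to 3 called genes per list and comparison with the smallest adjusted p, and the 3 genes most like each member called at 6 h against 0 h. Ddx6 (the tagged gene), Btg4, Cnot7, Cxadr and Gm49476 fall outside it and were chosen after their values were seen.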

Additional observations from a re-analysis of the deposited data

Results flagged for a closer look

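For 5 of the 10 genes the effect at 6 h and the effect at 3 h differed from each other by a test of the difference itself, 6 h against 3 h, with edgeR adjusted p over all 15748 genes. The log2 fold change was -0.36 for Tob2 (adjusted p = 5.1e-05), -0.30 for Btg1 (adjusted p = 0.00090), -0.20 for Pan2 (adjusted p = 0.0098), -0.12 for Pabpc4 (adjusted p = 0.0120) and -0.14 for Pan3 (adjusted p = 0.0462). Among all genes 21.7% were called in this comparison, 11.8% lower and 9.89% higher. In each of the 5 genes both 6 h libraries lay below both 3 h libraries. These genes were picked by the call on the same libraries, so the separation adds no support. The share of all genes so separated was not computed. The fibroblast markers moved the other way between these times, with 7 of 21 higher at 6 h, and the ES cell markers the same way, with 10 of 20 lower and none higher. The part of the fibroblast markers was not tested beyond the covariate fit, in which Btg1, Tob2 and Pabpc4 stayed called, and that of the ES cell markers was not tested.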

How the results depend on the processing

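Of 480 values of single members under 16 alternatives, 444 kept their direction and their side of the threshold. Btg1 and Tob2 were called at 6 h against 0 h and against 3 h in all 16, and Pan2 at 6 h against 0 h in all 16 (adjusted p up to 0.0499, without 6 h replicate 1). Tob1 at 6 h against 0 h was called in 15, and not with no filter on low counts (adjusted p = 0.102). At 6 h against 3 h Pan2 was called in 11, Pan3 in 8 and Pabpc4 in 12. The sign turned, always without a call, for Btg2 at 3 h with the fibroblast marker covariate (0.0084), Pan2 at 3 h without 0 h replicate 2 (0.0055) or 3 h replicate 1 (0.0182, in a range of -0.0743 to 0.0182 over the fits without a library), Pan3 at 6 h against 0 h without 0 h replicate 2 (0.0090, range -0.12 to 0.0090), Parn at 6 h against 0 h unscaled (0.0035), Tob1 at 6 h against 3 h without 3 h replicate 1 (-0.0203, range -0.0203 to 0.19), and Pabpc1 at 6 h against 3 h with the covariate (0.0274) or without 6 h replicate 1 (0.0121, range -0.0823 to 0.0121).

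Over all genes at 3 h the count of 22 became 12 with DESeq2, 0 with edgeR and no filter (where 1839 genes had an unadjusted p below 0.05), 44 with the covariate, 74 with only 4 libraries and 4 to 249 without a library, and the count of members became 1 with the covariate. At 6 h against 0 h the 3515 became 2029 with no filter and 1701 with DESeq2. At 6 h against 3 h the 3414 became 1725, 1449 and, with the covariate, 2084, and 1514 to 3706 without a library. The 5 members became 3 with no filter, 3 with DESeq2, 3 with the covariate and 2 to 5 without a library. The causes were not tested.

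Replicate differences correlated at 0.037, 0.040 and -0.021 across genes between times. Such values over all tested genes cannot show whether replicate numbers pair the libraries. The fibroblast markers summed to more CPM in replicate 1 than in replicate 2 at each time. With the replicate block, 242 genes were called at 3 h (55 higher, 187 lower), and at 6 h against 0 h the members called were 6, Pabpc1 (adjusted p = 0.0172) and Pabpc4 (adjusted p = 0.0318) being added. Voom, the covariate and the block each called those 6. The median log2 fold change of all genes at 6 h against 0 h was 0.037 with unscaled library sizes and 0.0019 with TMM scaling. With 2 libraries per time, a fit without a library assumes that the lone library varies like the others. Btg3, at 278 to 397 counts, is the member whose depth limits it most, with an SE of 0.08 to 0.09.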
